A study of Mus musculus with 6 samples.

Results

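Glutathione transferases, glutathione peroxidases, peroxiredoxins, thioredoxins with their reductases, superoxide dismutases, catalase, the enzymes of glutathione synthesis and reduction, and the NRF2 and KEAP1 regulators were examined in mouse islets after a pulse of Sox17. The set held 49 of the 19937 genes that had a probe set of their own on the array, and its members were found by a rule on gene symbols, drawn up with earlier results of these data known. In Sox17-GOF islets Gsta4 rose 17.9-fold, Gstm5 1.82-fold, Gpx2 1.72-fold and Txnrd3 1.63-fold, while Gstt1 fell 1.72-fold. The other 44 genes did not pass the test, among them Nfe2l2, which encodes NRF2, and its targets Nqo1, Gclm, Gclc, Srxn1 and Hmox1. Of the called genes, Gsta4 and Gpx2 also count as textbook NRF2 targets.

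Islets came from 16 week old mice on a C57BL/6 strain that had been backcrossed from an outbred stock for at least 3 generations, and the methods give male mice for experiments with this driver. By the labels all mice carried Ins2-rtTA, a transactivator driven in insulin-producing cells, and all received doxycycline in food and water for 24 hours. The 3 control samples had Ins2-rtTA alone, and the 3 Sox17-GOF (gain-of-function) samples had Ins2-rtTA;tetO-Sox17, in which the transactivator switches on a Sox17 transgene. The study used this pulse to ask which transcripts respond to SOX17, an endoderm transcription factor, before the islets change in structure. Every sample was an independent biological replicate on its own array. For an analysis of SOX17 protein after 24 hours of doxycycline the study describes controls that carried tetO-Sox17 without the driver, and the arrays were grouped here by their own labels. With the labelled genotypes doxycycline and the driver were shared by both groups, so their own effects were not measured.

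Glutathione is a small thiol that transferases attach to reactive compounds and that peroxidases use to reduce peroxides. Peroxiredoxins do the same with electrons from thioredoxin, and superoxide dismutases and catalase remove superoxide and hydrogen peroxide directly. Many of these genes carry an antioxidant response element, which the transcription factor NRF2 binds once it escapes its inhibitor KEAP1. The pancreatic β cell is known for its low catalase and glutathione peroxidase activity and depends in large part on the thioredoxin system.

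Sox17 itself was at 5.50, 5.72 and 5.71 (log2 signal) in control islets and at 6.35, 6.22 and 6.36 in Sox17-GOF islets, with no overlap between the groups. Its log2 difference was 0.67 (SE 0.09, limma adjusted p = 0.00876). The hormone genes that define islets were bright on every array, with Ins2 at 13.02 to 13.12, Gcg at 13.47 to 13.77 and Sst at 12.65 to 13.10, and so were acinar genes such as Cpa1 at 12.01 to 13.15. Array medians lay between 6.31 and 6.41, and arrays of a group correlated at 0.984 to 0.991 across probe sets. Sox17-GOF replicate 3 stood apart on the second principal component, which held 19.8% of the variance, at 26.3 against −17.4 and −13.1 for the other Sox17-GOF arrays. Results that rest on this array are given below with its value. Since whole islets were measured, fewer cells of a type and less RNA per cell cannot be told apart.

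Of the 49 genes, 4 were higher and 1 was lower in Sox17-GOF islets at a limma adjusted p under 0.05, which is 10.2% of the set. Over all 19937 genes 5.21% passed the same test, 2.77% higher and 2.44% lower. The groups did not overlap for 18 members, or 36.7% of the set, against 25.5% of all genes. These were 12 members higher (24.5%, against 11.3% of all genes) and 6 lower (12.2%, against 14.2%). At an unadjusted p under 0.05 limma named 16 members (32.7%, against 19.7% of all genes). The methods' t-test named 13 before adjustment (26.5%, against 16.8%), of which 7 also differed by at least 1.3-fold, the methods' own criterion (14.3%, against 7.42%). The methods name no adjustment for genes. With a Benjamini-Hochberg adjustment added here, their t-test called none of the 49, Gsta4 included (adjusted p = 0.0622). Gpx2 and Gstt1 lost the limma call when p-values were adjusted over all 34760 probe sets (adjusted p = 0.0623 and 0.0536). The median log2 difference was 0.05 over the members and −0.01 over all genes, and its median size was 0.17 against 0.11. Without Gsta4, 48 genes held 3 higher and 1 lower call (8.33%). Gsta4 ranked 3 of all genes by log2 difference, while the next members, Gsta3 and Gstm5, ranked 252 and 286. Among genes with a probe set of their own, a single transferase thus stood far from a set in which most differences were small. Class alpha probe sets with several symbols lie outside this set. They differed by 1.14 to 2.90 without a call and are given further on.

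**Figure D1:**
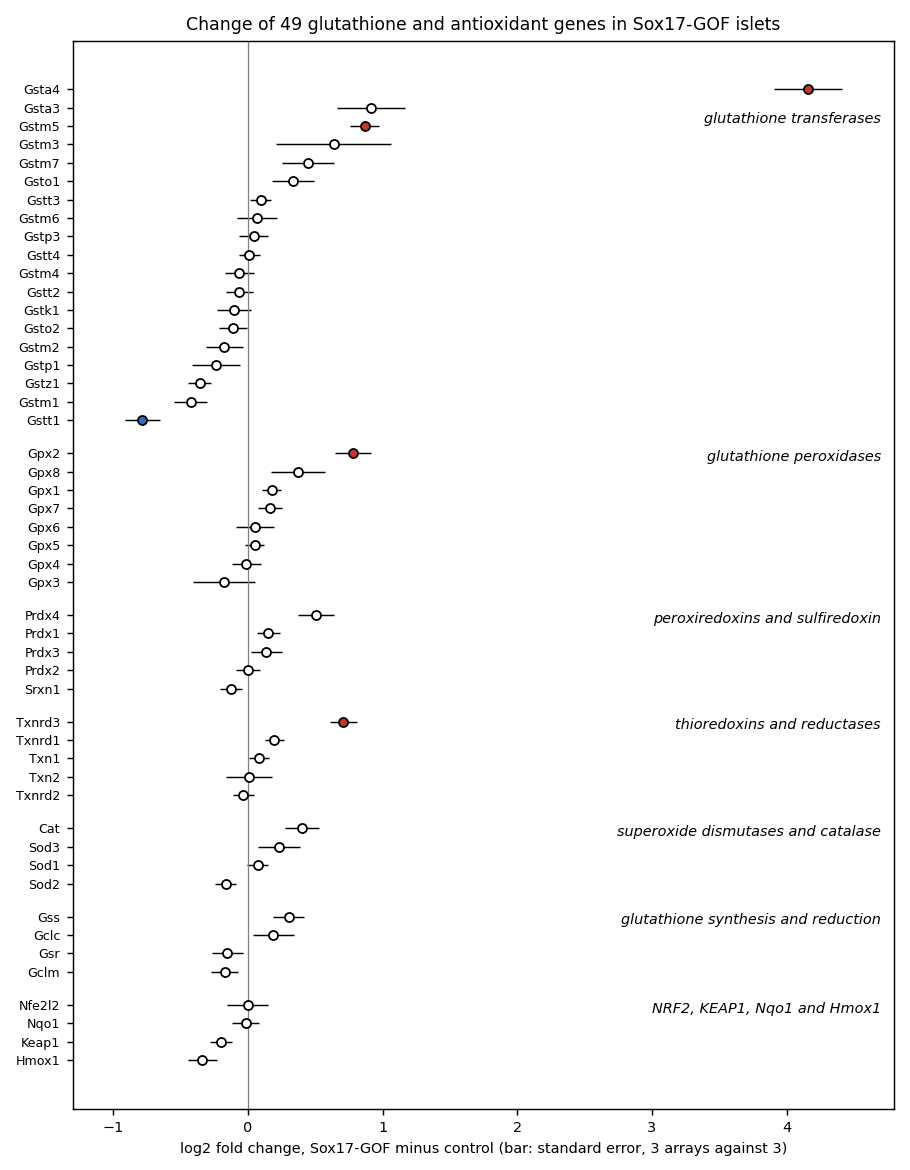
Log2 fold change (horizontal axis, Sox17-GOF minus control) of each of the 49 genes, grouped by role, with bars for the standard error from limma on 3 arrays against 3. Red points were higher and the blue point was lower at an adjusted p under 0.05, and open points did not pass. Gsta4 lies at 4.16 and all other members lie between −0.78 and 0.91.

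The proximal promoters of the called genes and of Gsta3 are shown because NRF2 and SOX proteins bind short motifs whose letters can be searched for there. RefSeq promoters (GRCm38.p6) were matched to 43 of the 49 members, and those of Gsta4, Gclc, Gsr, Hmox1, Sod3 and Gstt2 were not analysed here. Each line gives the 250 bases before the annotated start, read 5′ to 3′ on the gene's strand. Capitals mark matches on either strand to the antioxidant response element core TGACNNNGC, the AP-1 site TGANTCA or the SOX core ACAAT. Gstm5 (chr3:107895604-107895853, plus strand) and Gsta3 (chr1:21240335-21240584, plus strand) hold the element, and Gpx2 (chr12:76795555-76795804, minus strand), Txnrd3 (chr6:89643738-89643987, plus strand) and Gstt1 (chr10:75797732-75797981, minus strand) hold none of these letters.
Gstm5: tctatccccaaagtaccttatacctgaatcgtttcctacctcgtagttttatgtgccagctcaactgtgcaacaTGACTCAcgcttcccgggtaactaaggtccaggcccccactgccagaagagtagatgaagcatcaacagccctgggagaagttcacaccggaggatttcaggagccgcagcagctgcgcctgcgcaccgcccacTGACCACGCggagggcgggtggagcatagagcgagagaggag
Gsta3: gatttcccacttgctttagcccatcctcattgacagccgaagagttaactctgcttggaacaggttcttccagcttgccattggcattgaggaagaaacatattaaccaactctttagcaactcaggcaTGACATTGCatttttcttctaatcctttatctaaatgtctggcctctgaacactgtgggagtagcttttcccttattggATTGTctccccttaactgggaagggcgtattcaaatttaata
Gpx2: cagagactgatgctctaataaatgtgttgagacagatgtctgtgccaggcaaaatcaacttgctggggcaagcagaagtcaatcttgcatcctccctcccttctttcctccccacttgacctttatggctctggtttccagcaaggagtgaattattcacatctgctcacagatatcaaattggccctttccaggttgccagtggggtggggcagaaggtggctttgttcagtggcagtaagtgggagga
Txnrd3: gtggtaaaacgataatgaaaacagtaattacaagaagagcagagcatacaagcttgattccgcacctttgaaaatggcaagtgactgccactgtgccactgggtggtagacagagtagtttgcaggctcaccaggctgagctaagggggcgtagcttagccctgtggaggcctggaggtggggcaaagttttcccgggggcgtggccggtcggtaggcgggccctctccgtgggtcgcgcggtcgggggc
Gstt1: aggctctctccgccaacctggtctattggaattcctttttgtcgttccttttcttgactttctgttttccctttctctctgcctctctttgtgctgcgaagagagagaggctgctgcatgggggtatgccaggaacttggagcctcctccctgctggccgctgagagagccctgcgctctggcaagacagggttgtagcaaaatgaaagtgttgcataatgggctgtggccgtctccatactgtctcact
In Gstm5 the AP-1 match lay 176 to 170 bases before the start and the antioxidant response element match 42 to 34 bases before it. In Gsta3 the antioxidant response element match lay 121 to 113 bases before the start, and a SOX core match, which is on the minus strand and so reads ATTGT here, lay 42 to 38 bases before it. Matches were counted in the 250 bases before the start for all 32851 mouse promoters used here, and the 50 bases after it were not searched. Of these promoters 10.2% had the antioxidant response element core, 6.75% the AP-1 site and 27.7% the SOX core. Of the 56 promoters of members, 14.3% had the antioxidant response element core, 7.14% the AP-1 site and 17.9% the SOX core. The 8 members with the antioxidant response element core were Gclm, Gsta3, Gstm5, Gstm7, Nfe2l2, Prdx1, Sod1 and Txnrd1, of which Gstm5 alone was called, and in Prdx1 the match overlaps an AP-1 site. A match of letters describes the sequence and shows no binding.

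The glutathione transferases were the largest group, with 19 genes. Of these, 2 rose, 1 fell and the other 16 missed the threshold (15.8% called, against 5.21% of all genes). Gsta4, a class alpha enzyme that conjugates hydroxynonenal from oxidised lipids, was at 7.06, 7.02 and 7.12 (log2 signal) in control islets. In Sox17-GOF islets it was at 11.77, 10.62 and 11.28, so every Sox17-GOF array exceeded every control array by more than 3 log2 units. Its log2 difference was 4.16 (SE 0.25, limma adjusted p = 0.000327), and it passed in all 6 fits that left out an array, with values between 3.89 and 4.46. An exact two-sided permutation test of the 3 against 3 arrays gave p = 0.1, the smallest value that 20 permutations allow. Control arrays spread by 0.05 (SD of 3 arrays) and Sox17-GOF arrays by 0.58 (SD of 3 arrays). The array that stood apart gave the middle Sox17-GOF value, and without it the difference was 4.13.

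The other class alpha gene with a probe set of its own, Gsta3, an enzyme that detoxifies aflatoxin in mice, was at 6.64, 6.21 and 6.42 in control islets and at 6.78, 7.36 and 7.86 in Sox17-GOF islets. The groups did not overlap, but the lowest Sox17-GOF array lay only just above the highest control array. Its log2 difference of 0.91 (SE 0.26, limma adjusted p = 0.0949) did not pass, and it passed only when Sox17-GOF replicate 1 was left out (adjusted p = 0.0225).

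Of the 7 class mu genes 1 was higher and the others did not pass (14.3% called, against 5.21% of all genes). Gstm5 was at 9.85, 10.16 and 9.997 in control islets and at 10.98, 10.88 and 10.74 in Sox17-GOF islets, a log2 difference of 0.87 (SE 0.11, limma adjusted p = 0.00550). It passed without any of the 6 arrays. Gstm1, the main class mu enzyme of mouse liver, was at 9.38, 9.20 and 9.10 in control islets and at 8.64, 8.74 and 9.03 in Sox17-GOF islets. All Sox17-GOF arrays lay below the control arrays, with a log2 difference of −0.43 (SE 0.12, limma adjusted p = 0.106) that passed only without Sox17-GOF replicate 3 (adjusted p = 0.0404). Gstm3 differed by 0.64 (SE 0.43), with Sox17-GOF replicate 3 at 8.30 against 6.91 and 6.37 for the other Sox17-GOF arrays. A second probe set of Gstm3 differed by −0.23, so its direction depends on the probe set. Gstm7 differed by 0.45, Gstm6 by 0.07, Gstm4 by −0.06 and Gstm2 by −0.18, and none of these passed. The signal of Gstm6 was under 4.63 on every array, a level that 20% of all values fall under.

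Among the 4 class theta genes Gstt1, which acts on small halogenated compounds, was at 8.29, 8.27 and 8.51 in control islets and at 7.54, 7.36 and 7.82 in Sox17-GOF islets. Each Sox17-GOF array was below each control array, with a log2 difference of −0.78 (SE 0.13, limma adjusted p = 0.0176). The call was lost without Sox17-GOF replicate 1 and without each control array, with adjusted p between 0.0501 and 0.0647. Gstt2, Gstt3 and Gstt4 differed by −0.06, 0.09 and 0.01. Gstz1, which acts in tyrosine breakdown, was lower on every Sox17-GOF array by 0.36 (SE 0.08) and just missed the threshold (limma adjusted p = 0.0549). Gstp1, the main class pi enzyme, was at 12.27, 12.28 and 11.96 in control islets and at 12.05, 11.54 and 12.21 in Sox17-GOF islets. These values overlapped, and the difference of −0.24 (SE 0.18, limma adjusted p = 0.543) had a 95% interval from −0.65 to 0.18. The remaining transferases, Gstp3, Gsto1, Gsto2 and Gstk1, differed by −0.11 to 0.34 with overlapping groups.

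**Figure D2:**
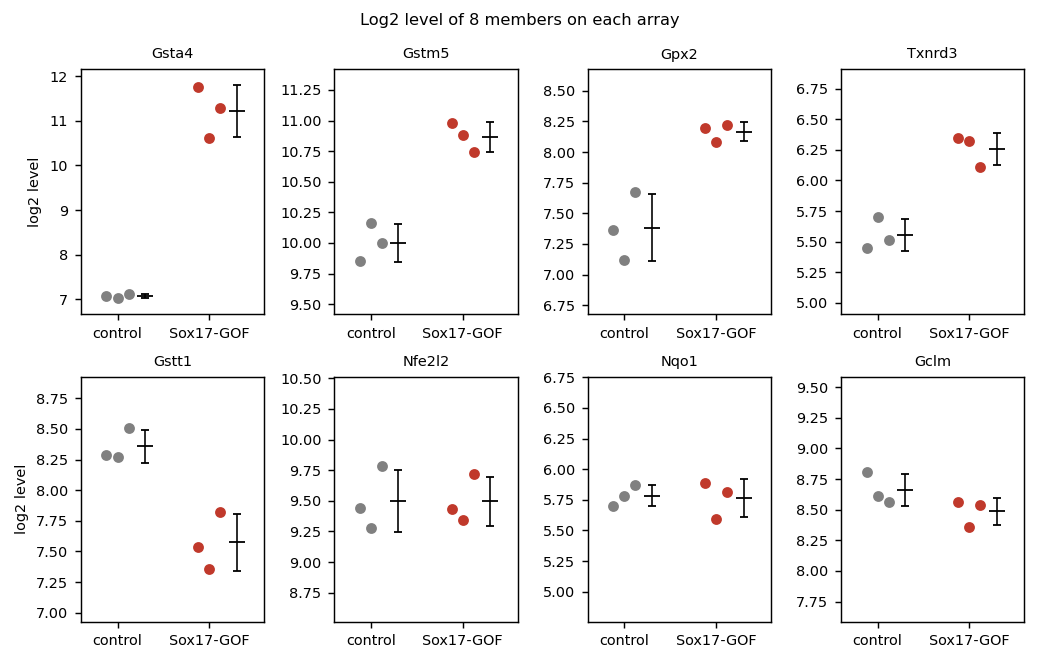
Log2 signal (vertical axis) of the 5 called members and of Nfe2l2, Nqo1 and Gclm on each array, with points for the 3 control (grey) and 3 Sox17-GOF (red) arrays and bars for the mean and SD of each group. The groups separate for the called members, by most for Gsta4, and overlap for Nfe2l2, Nqo1 and Gclm. The axes differ between panels.

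Of 8 glutathione peroxidases, 1 was higher and none was lower by limma (12.5% called, against 5.21% of all genes). Gpx2, a selenoenzyme best known from the gut epithelium, was at 7.36, 7.12 and 7.67 in control islets and at 8.20, 8.08 and 8.22 in Sox17-GOF islets. The control arrays spread more widely (SD 0.27) than the Sox17-GOF arrays (SD 0.08), and the log2 difference was 0.78 (SE 0.14, limma adjusted p = 0.0213). The call was lost without each Sox17-GOF array and without control replicates 1 and 2, with adjusted p between 0.0508 and 0.0825, and held without control replicate 3. Gpx1, the cytosolic peroxidase, was at 10.85, 10.82 and 10.92 in control islets and at 11.06, 11.07 and 11.00 in Sox17-GOF islets. Although its groups did not overlap, the difference of 0.18 did not pass (limma adjusted p = 0.240). Gpx4, which reduces lipid peroxides in membranes, was at 10.98, 10.95 and 11.16 in control islets and at 11.08, 10.82 and 11.15 in Sox17-GOF islets. Its difference was −0.01 (SE 0.11, limma adjusted p = 0.973), with a 95% interval from −0.26 to 0.24. Gpx7 and Gpx8, which reside in the endoplasmic reticulum, differed by 0.16 and 0.37, and Gpx3, the secreted peroxidase, by −0.18. None of these 3 passed. Gpx5 and Gpx6, known from epididymis and olfactory tissue, lay at 3.87 to 3.99 and 4.56 to 5.11 and differed by 0.05 each.

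None of the peroxiredoxins or Srxn1 passed by limma, and only Prdx4 did so at an unadjusted p under 0.05, in limma and in the methods' t-test alike. Prdx4, the peroxiredoxin of the endoplasmic reticulum, was at 9.56, 9.33 and 9.30 in control islets and at 9.64, 10.02 and 10.04 in Sox17-GOF islets. The groups did not overlap, with a log2 difference of 0.51 (SE 0.13, limma adjusted p = 0.0770) that passed only without Sox17-GOF replicate 1 (adjusted p = 0.0291). Prdx2, a cytosolic peroxiredoxin, was at 12.02, 12.21 and 12.28 in control islets and at 12.21, 12.17 and 12.13 in Sox17-GOF islets. Its difference was 0.0006 (SE 0.09, limma adjusted p = 0.998), with a 95% interval from −0.21 to 0.21. Prdx1 and Prdx3, the latter mitochondrial, differed by 0.15 and 0.14, and Srxn1, which repairs overoxidised peroxiredoxins, by −0.13. Second probe sets of Prdx1 and Prdx2 differed by 0.19 and 0.02 and those of Gpx4 by 0.01, within 0.05 of the probe sets above. Prdx5 and Prdx6 were not analysed here.

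In the thioredoxin system 1 of 5 genes was higher. Txnrd3, the thioredoxin-glutathione reductase best known from testis, was at 5.45, 5.70 and 5.51 in control islets and at 6.35, 6.32 and 6.11 in Sox17-GOF islets. All Sox17-GOF arrays lay above the control arrays, the log2 difference was 0.71 (SE 0.10, limma adjusted p = 0.0107), and the call held without any of the 6 arrays, though only barely without control replicate 1 (adjusted p = 0.04999). Txnrd1, the cytosolic reductase and an NRF2 target, differed by 0.20 without overlap between the groups (8.40 to 8.50 against 8.60 to 8.67), and did not pass (limma adjusted p = 0.194). Txn1, the main cytosolic thioredoxin, was at 12.37, 12.28 and 12.35 in control islets and at 12.35, 12.42 and 12.46 in Sox17-GOF islets. Its difference was 0.08 (SE 0.07, limma adjusted p = 0.630), with a 95% interval from −0.09 to 0.25. The mitochondrial Txn2 and Txnrd2 differed by 0.01 and −0.04.

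The superoxide dismutases and catalase gave no call by limma. At an unadjusted p under 0.05 limma named Cat and the methods' t-test named Sod2. Cat, the peroxisomal enzyme that splits hydrogen peroxide, was at 7.35, 7.20 and 7.07 in control islets and at 7.39, 7.60 and 7.84 in Sox17-GOF islets. The groups were separated by a narrow gap, and the log2 difference was 0.40 (SE 0.13, limma adjusted p = 0.139). Sod1, the cytosolic dismutase, was at 13.07, 13.06 and 13.08 in control islets and at 13.25, 13.12 and 13.05 in Sox17-GOF islets. It differed by 0.07 (SE 0.08, limma adjusted p = 0.701), with a 95% interval from −0.11 to 0.25. The mitochondrial Sod2 was lower on every Sox17-GOF array by 0.17, and the secreted Sod3 differed by 0.23 with overlap, and neither passed.

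The genes that make and recycle glutathione did not pass by limma either. Gclm, the modifier subunit of the enzyme that starts glutathione synthesis, was at 8.81, 8.61 and 8.56 in control islets and at 8.56, 8.36 and 8.54 in Sox17-GOF islets. Its difference of −0.17 (SE 0.10, limma adjusted p = 0.403) had a 95% interval from −0.40 to 0.06. Gclc, the catalytic subunit, differed by 0.19 with an interval from −0.17 to 0.55, and Gsr, which reduces oxidised glutathione, differed by −0.15. Gss, which adds the last amino acid, differed by 0.30 without overlap, and was the 1 gene of the 4 at an unadjusted p under 0.05 in limma, while the methods' t-test had none.

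Of Nfe2l2, Keap1, Nqo1 and Hmox1, none passed by limma. Nfe2l2 was at 9.44, 9.28 and 9.78 in control islets and at 9.43, 9.34 and 9.72 in Sox17-GOF islets, and its difference of −0.0023 (SE 0.15, limma adjusted p = 0.996) had a 95% interval from −0.35 to 0.35. Nqo1, a quinone reductase widely used as an NRF2 reporter, was at 5.70, 5.78 and 5.87 in control islets and at 5.89, 5.59 and 5.81 in Sox17-GOF islets. Its difference was −0.02 (SE 0.10, limma adjusted p = 0.953), with a 95% interval from −0.25 to 0.22. Hmox1, which degrades haem, and Keap1 were lower on every Sox17-GOF array, by 0.34 and 0.20, and did not pass (limma adjusted p = 0.145 and 0.226). These 2 were also the genes of this group at an unadjusted p under 0.05, in limma and in the t-test. Of 13 members that are textbook NRF2 targets, 2 were higher (Gsta4 and Gpx2) and none was lower by limma (15.4%, against 5.21% of all genes). At an unadjusted p under 0.05 limma had 4 higher and 2 lower (46.2%, against 19.7% of all genes). The methods' t-test had 3 higher and 2 lower before adjustment (38.5%, against 16.8%). The median difference of these targets was 0.08. The list of targets was written with earlier results of these data known and includes Gsta4. Among the fits that left out an array, its other called gene, Gpx2, kept the call only without control replicate 3.

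Other properties shared by members cut across these roles. Of 7 members that are selenoproteins, in which selenocysteine is the catalytic residue, 2 were higher (Gpx2 and Txnrd3) and none was lower. The share was 28.6%, against 5.21% of all genes. At an unadjusted p under 0.05, 4 were higher and 0 lower, in limma and in the methods' t-test alike. That is 57.1%, against 19.7% of all genes in limma and 16.8% in the t-test. The median difference of these members was 0.18. Genes of the pathway list given below whose symbols begin with Seleno were not counted here. Selenop, Selenot and Selenos differed by −0.30, −0.29 and −0.29, each at an unadjusted p under 0.05 in limma. Selenow, Selenom and Selenof differed by −0.09, 0.09 and 0.10, and none of these genes passed after adjustment. Of 5 mitochondrial members, Sod2, Prdx3, Txn2, Txnrd2 and Gstk1, none passed by limma, none did so at an unadjusted p, and 1 did in the methods' t-test before adjustment. The median of the mitochondrial members was −0.04. Members that lie in the endoplasmic reticulum, Prdx4, Gpx7 and Gpx8, differed by 0.51, 0.16 and 0.37. That last group was formed after the values were seen and is given as a description.

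Gene order in GRCm38.p6 placed several transferases next to each other, which allows each to be set beside its neighbours. This order holds only genes with a probe set of their own, so the class alpha genes read by probe sets with several symbols are not in it, and their values are given further on. Around Gsta4 on chromosome 9, of the 5 ordered genes on either side, including Gclc, none was higher by limma and Elovl5, a fatty acid elongase, was lower by 0.53 (SE 0.09, limma adjusted p = 0.0183). The others differed by −0.30 to 0.23. On chromosome 3 the class mu genes follow each other in the order Gstm5, Gstm7, Gstm6, Gstm3, Gstm2, Gstm1 and Gstm4, and their differences in that order were 0.87, 0.45, 0.07, 0.64, −0.18, −0.43 and −0.06. The genes beside the cluster, Eps8l3 and Ampd2, differed by 0.12 and −0.60, and neither passed. On chromosome 10 Gstt1 was lower by 0.78 between Gstt3 at 0.09 and Gstt4 at 0.01. The differences between neighbours were not tested.

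**Figure D3:**
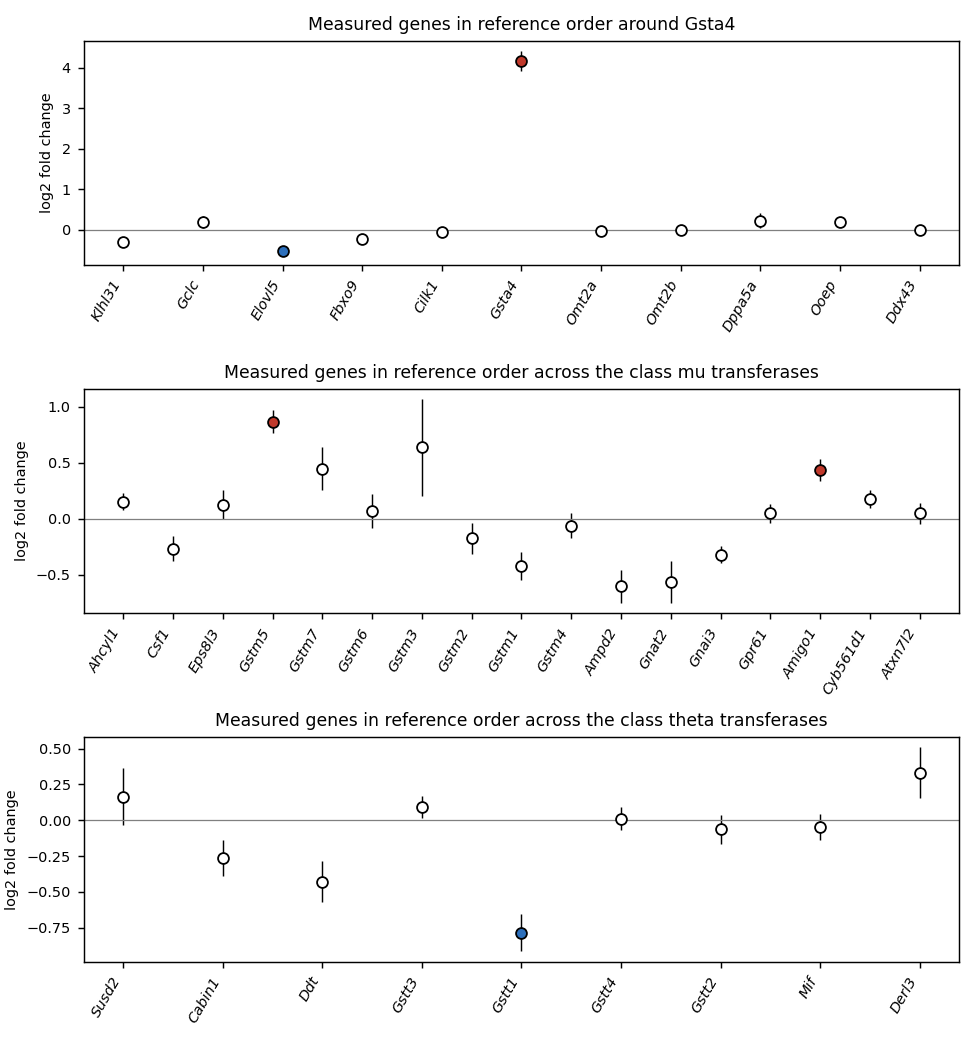
Log2 fold change (vertical axis, Sox17-GOF minus control, bars for the standard error) of genes with a probe set of their own, in chromosome order, around Gsta4, across the class mu genes and across the class theta genes. The horizontal axis gives order, not distance. Red and blue points were higher and lower at a limma adjusted p under 0.05, and around Gsta4 at 4.16 the other genes shown lie at 0.23 or below. Class alpha genes read by probe sets with several symbols, which differed by 1.14 to 2.90, are not in the plot.

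Further probe sets for transferases carried several gene symbols and so could not be assigned to a gene. The 3 class alpha sets of this kind (4 symbols each) were far higher on Sox17-GOF replicate 3 than on any other array. Probe set A was at 6.50, 5.69 and 5.37 in control islets and at 8.14, 6.61 and 11.51 in Sox17-GOF islets. Probe set B was at 4.69, 4.84 and 4.74 against 4.72, 4.99 and 7.97, and probe set C at 5.92, 5.61 and 5.84 against 6.71, 6.28 and 10.21. Their log2 differences of 2.90, 1.14 and 1.94 did not pass (limma adjusted p = 0.202, 0.490 and 0.306). The 2 class pi sets with several symbols differed by −0.03 and −0.24.

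Sox17-GOF replicate 3 exceeded the mean of the other Sox17-GOF arrays by at least 0.5 log2 units for 2 of the 49 members (4.08%, Gstm3 and Gsta3), against 2.58% of all genes. Of the 5 duct markers measured 4 were highest on this array and 1, Krt7, was lowest there, and 4 of the 8 fibroblast and stellate cell markers and 6 of the 7 acinar markers were highest on it. The duct marker Krt19 was at 6.53, 6.30 and 6.16 in control islets and at 6.74, 7.07 and 9.13 in Sox17-GOF islets. The duct marker Krt7 went the other way, at 10.54, 10.58 and 10.62 against 10.26, 10.36 and 10.08, and the fibroblast marker Lum was at 4.15, 4.42 and 4.09 against 4.54, 5.58 and 6.06. Summed on the linear scale, the 5 duct markers measured of 6 listed gave 1904 to 1953 in control islets and 1622, 1875 and 2271 in Sox17-GOF islets. Krt7 was the brightest duct marker on every array and weighs most in this sum. The 8 fibroblast and stellate cell markers gave 700.2 to 1182 against 919, 1402 and 1598, and 7 acinar markers of 9 listed gave 38860 to 48630 against 26030, 43850 and 53260. No duct or fibroblast marker passed by limma. At an unadjusted p under 0.05 limma had 1 duct marker higher (Krt19) and 1 lower (Krt7) and 4 fibroblast markers higher (1 duct and 2 fibroblast markers in the methods' t-test). The acinar transcription factor Bhlha15 was lower by 0.64 (limma adjusted p = 0.0312) and passed in 2 of the 6 fits that left out an array. In control islets Cftr and Lum had mean signals under 4.63. The part of these cells in the levels of Gsta3, Gstm3 and the class alpha probe sets was not tested. The 4 calls that do not include Gpx2 held without this array, while Gpx2 then had a limma adjusted p of 0.0508.

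**Figure D4:**
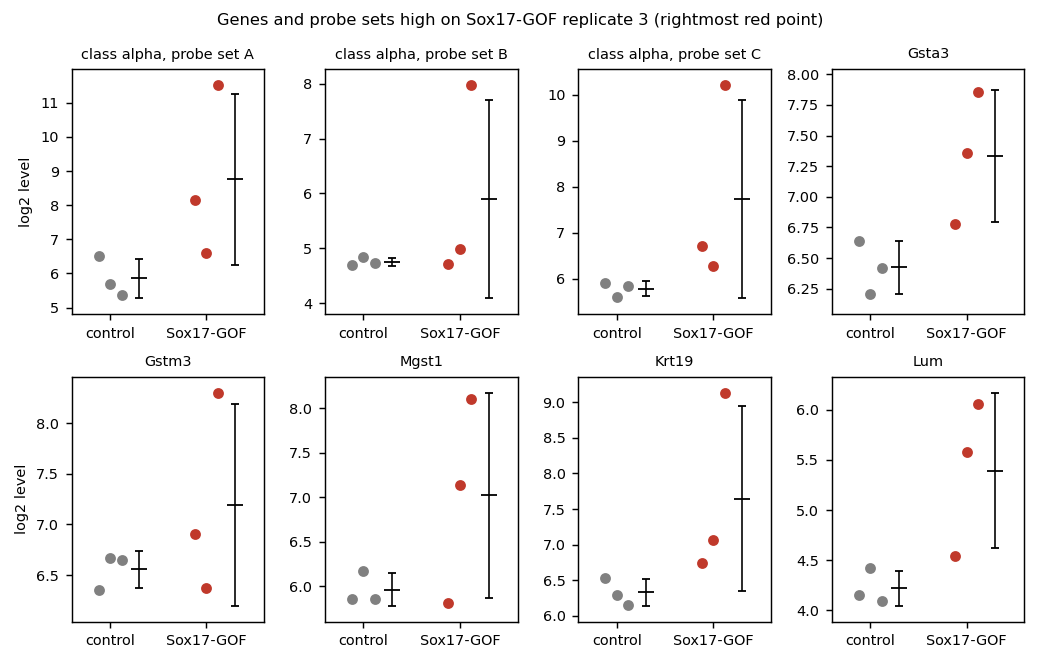
Log2 signal (vertical axis) on each array of the 3 class alpha probe sets with several symbols (A, B and C), of Gsta3, Gstm3 and Mgst1, and of the duct marker Krt19 and the fibroblast marker Lum. Grey points are control arrays and red points Sox17-GOF arrays in replicate order, with bars for the mean and SD of 3 arrays. Sox17-GOF replicate 3, the rightmost red point, is the highest array in every panel. The axes differ between panels.

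Some markers of β cells moved as well. Of 8 β cell markers 4 were lower in Sox17-GOF islets (Slc2a2, G6pc2, Pdx1 and Ucn3, by 0.47 to 1.03). Of all genes 2.44% were lower by the same test. Slc2a2 and Ucn3 passed in all 6 fits that left out an array, G6pc2 in 2 (adjusted p up to 0.0780) and Pdx1 in 0 (adjusted p from 0.0549 to 0.113). The summed linear signal of the 8 markers was 33260 to 34930 in control islets and 26990 to 29000 in Sox17-GOF islets. Ins2, Iapp, Mafa and Nkx6-1 differed by −0.01, −0.09, −0.01 and −0.17 and did not pass. The 5 alpha cell markers of 7 listed summed to 22490 to 24550 against 21770 to 23430, and the 4 delta and PP cell markers to 22730 to 25440 against 19790 to 25310, without a call by limma or at an unadjusted p. Of 7 endothelial markers Kdr was lower by 0.68 (limma adjusted p = 0.0160) and passed in 3 of the 6 fits that left out an array. At an unadjusted p under 0.05 limma had 2 endothelial markers higher (Pecam1 and Cdh5) and 2 lower (Kdr and Esm1). The sum of the 7 was 2851 to 2947 in control islets and 2328 to 2760 in Sox17-GOF islets. Esm1 was the brightest of the 7 on every array and weighs most in this sum. Markers of macrophages and leukocytes, Schwann cells and erythrocytes had no call by limma, with 1, 1 and 0 at an unadjusted p under 0.05. The part of these markers in the fall of Gstt1 was not tested.

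To place the members in their pathway, 77 further genes of glutathione, thiol and NRF2 biology were read from the same fit, of which 73 had a probe set of their own. Of these 6 were higher and 3 were lower, or 12.3% against 5.21% of all genes, and 64 did not pass, with a median difference of −0.04. Without any one of control replicates 1, 2 and 3 these counts fell to 2 higher and 1 lower, and without Sox17-GOF replicate 2 they were 5 and 1. The groups did not overlap for 28, or 38.4% against 25.5% of all genes. These were 9 higher (12.3%, against 11.3%) and 19 lower (26.0%, against 14.2%). The group of glutathione breakdown, transport and thiol genes held 3 higher and 2 lower calls among 24 (20.8%). The group of oxidant sources and selenoproteins held 3 higher and 1 lower among 19 (21.1%). None of the 18 genes of NADPH supply and NRF2 response and none of the 9 regulators passed by limma. At an unadjusted p under 0.05 limma named 4 of these 18 and 2 of these 9 genes (22.2% each, against 19.7% of all genes). The methods' t-test named 3 and 1 (16.7% and 11.1%, against 16.8%).

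Txnip, which binds and blocks thioredoxin and responds to glucose in β cells, was at 10.15, 10.25 and 10.08 in control islets and at 11.18, 12.23 and 11.51 in Sox17-GOF islets. It rose 2.79-fold (log2 difference 1.48, SE 0.24, limma adjusted p = 0.0154). The call was lost without each control array, with adjusted p up to 0.0645. Msrb2, a mitochondrial enzyme that repairs oxidised methionine, was at 8.20, 8.31 and 8.15 in control islets and at 9.86, 9.66 and 9.48 in Sox17-GOF islets, or 2.73-fold higher (log2 difference 1.45, SE 0.11, limma adjusted p = 0.000824). Msra, which repairs the other form of oxidised methionine, rose by 0.40 (SE 0.09, limma adjusted p = 0.0458) and passed in none of the fits that left out an array. Nox4, an oxidase that makes hydrogen peroxide, was at 5.05, 4.94 and 4.78 against 5.88, 5.81 and 5.57, or 1.78-fold higher (log2 difference 0.83, SE 0.11, limma adjusted p = 0.00804). Msrb2 and Nox4 were the only genes of this list to pass without any of the 6 arrays.

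Abcc1, a pump that exports glutathione conjugates, was at 7.22, 7.15 and 7.16 in control islets and at 8.60, 7.89 and 8.03 in Sox17-GOF islets, or 1.99-fold higher (log2 difference 0.99, SE 0.17, limma adjusted p = 0.0199). Txndc16, a protein with thioredoxin domains, rose by 0.79 (SE 0.15, limma adjusted p = 0.0277). Both lost the call without each control array, with adjusted p between 0.0694 and 0.110. Chac1, which degrades glutathione, was at 8.11, 8.25 and 8.08 against 7.19, 7.58 and 7.45, or 1.67-fold lower (log2 difference −0.74, SE 0.11, limma adjusted p = 0.0135), and lost the call without control replicates 1 and 2. Slc3a2, the shared heavy chain of the cystine carrier, fell by 0.46 (SE 0.08, limma adjusted p = 0.0172), and lost the call without control replicates 2 and 3 and Sox17-GOF replicate 2. Its partner Slc7a11 differed by −0.33 with a 95% interval from −0.83 to 0.16. Sephs2, which makes the selenium donor for selenoproteins, fell by 0.49 (SE 0.09, limma adjusted p = 0.0240) and kept the call only without Sox17-GOF replicates 1 and 3. Selenoprotein genes went in both directions, with Gpx2 and Txnrd3 called higher. Without a call, Selenop, Selenot and Selenos differed by −0.30, −0.29 and −0.29, and Selenom and Selenof by 0.09 and 0.10. A link of these genes to Sephs2 was not tested.

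Of the 3 microsomal transferases, Mgst1 was at 5.85, 6.17 and 5.86 in control islets and at 5.81, 7.14 and 8.11 in Sox17-GOF islets, and Mgst2 and Mgst3 were also highest on Sox17-GOF replicate 3. None passed by limma, and none did at an unadjusted p in limma or the t-test. This array exceeded the mean of the others of its group by at least 0.5 for 9 of the 73 genes, or 12.3%, against 2.58% of all genes.

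**Figure D5:**
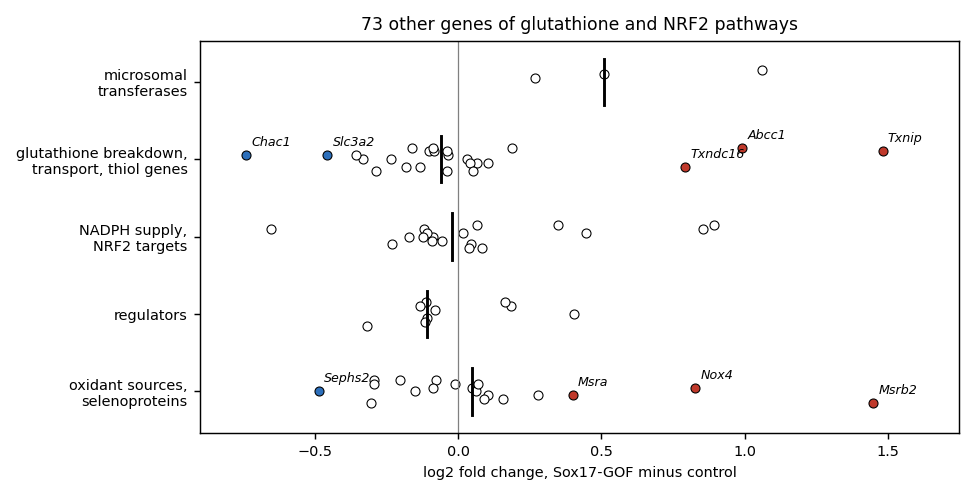
Log2 fold change (horizontal axis, Sox17-GOF minus control) of 73 pathway genes that are not members, in 5 groups, with a black line for the median of each group. Red and blue points were higher and lower at a limma adjusted p under 0.05 and are named. Txnip at 1.48 and Msrb2 at 1.45 lie farthest to the right and Chac1 at −0.74 farthest to the left.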

How the data were processed

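Total islet RNA was amplified with the NuGEN WT-Ovation Pico system and hybridised to Affymetrix Mouse Gene ST arrays, 1 per sample. The authors normalised the arrays by RMA, and the deposited values are log2 signals of 34760 probe sets (GeneSpring per the methods; Affymetrix Expression Console per the submitters' processing notes). The genome build is not given in the sources used here. Probe sets were named through the platform annotation: 21640 had 1 symbol, 1321 several and 11799 none, and 21553 of the first matched the reference by Entrez gene, which changed 0 symbols. Each gene was read from its brightest probe set with 1 symbol.

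The 3 Sox17-GOF and 3 control arrays were compared with limma 3.58.1 (R 4.3.3; lmFit and eBayes without trend) over all 22961 probe sets with a symbol, with Benjamini-Hochberg adjustment over all of them and a threshold of 0.05. Fold changes are ratios of the deposited log2 signals after back-transformation. Signals of different probe sets were ranked only to choose a gene's probe set and the brightest member of each role, and such ranks are no comparison of transcript amounts. The number of arrays limits precision. The members and lists were chosen with earlier results of these data known. Full values are given for members that passed, for those whose groups did not overlap with a log2 difference of at least 0.4, and for the brightest member of each role, and called genes of the pathway list are named. Gpx1 and Nqo1 were added after their values were seen. Same-numbered arrays did not deviate together, so no pairing was used. Alternatives were array weights, eBayes with an intensity trend, quantile normalisation, median centring, a test over all probe sets, no dim probe sets and the replicate block. Further alternatives were the methods' t-test (Student), genes averaged over their probe sets, and each array left out. A Benjamini-Hochberg adjustment was added here to that t-test, since the methods name none for genes. The limma step was tested on simulated data. Gene order and promoters came from RefSeq (GRCm38.p6). Some hormone and enzyme genes and members without a probe set of their own are not analysed here.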

Additional observations from a re-analysis of the deposited data

Results flagged for a closer look

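Probe sets with several class alpha symbols lie outside the comparison of single genes but carry signal above the controls. Probe set A differed by 2.90 log2 units (SE 1.08) and probe set C by 1.94 (SE 0.91), with every Sox17-GOF array above every control array and most of the difference on Sox17-GOF replicate 3. Neither passed (limma adjusted p = 0.202 and 0.306).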

How the results depend on the processing

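The 16 members named by the rule for full values and the 9 called pathway genes were recomputed under 15 alternatives each. Of 375 comparisons, 298 kept direction and side of the threshold, 61 lost the call, 3 gained it, and 13 changed sign. The sign changes were of uncalled differences near 0: Gpx4 (0.042 after quantile normalisation, 0.0005 with probe sets averaged, −0.0769 to 0.0858 with an array left out), Prdx2 (−0.0237 after median centring, −0.0173 after quantile normalisation, −0.0748 to 0.0574 with an array left out) and Nfe2l2 (0.036 after quantile normalisation, −0.1139 to 0.1373 with an array left out). With the adjustment added here, the methods' t-test called 71 probe sets in all and 0 members and 0 pathway genes in either direction. Before adjustment it called 7 members higher and 6 lower (limma 11 and 5) and 8 and 11 pathway genes (limma 10 and 12), and at the methods' fold of 1.3 it called 5 and 2 members. For the pathway genes the share was 26.0% (limma 30.1%), against 16.8% (limma 19.7%) of all genes. Testing all probe sets left 558 of 34760 called against 1133, with 3 members higher, 0 lower (limma adjusted p = 0.0536 for Gstt1) and 2 pathway genes higher. Array weights, and averaging the probe sets of each gene, gave 2 members lower instead of 1. The replicate block called 720 probe sets and 1 pathway gene lower instead of 3, and changed no member's call. The correlation of deviations between same-numbered arrays was 0.05, −0.02 and −0.04. Leaving out an array gave 3 to 5 members higher, 0 to 2 lower, 2 to 7 pathway genes higher and 1 to 3 lower, and 385 (without control replicate 2), 472 (without control replicate 1), 521 (without control replicate 3), 651 (without Sox17-GOF replicate 2), 926 (without Sox17-GOF replicate 1) or 1020 (without Sox17-GOF replicate 3) probe sets called. These fits have fewer arrays; other causes were not tested. Scaling moved the median of all probe sets by −0.02 at most.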
